A study of Mus musculus with 78 samples.

Results

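Acarbose in 12-month-old mice was examined in 12 of the 78 liver RNA libraries of a mouse study of lifespan-extending interventions. The 12 libraries were chosen by their labels alone. They were 6 libraries of UM-HET3 mice given acarbose at 1000 ppm in the diet for 8 months, from 3 males and 3 females, and 6 of UM-HET3 control mice of the same age, also from 3 males and 3 females. All 12 mice ate Purina 5LG6, which held no added compound in the controls, and acarbose was given until death. The controls were littermates, livers were frozen on dry ice, and poly(A) RNA was sequenced with paired-end reads. UM-HET3 mice come from a cross of several inbred strains, so each mouse carries its own mix of alleles and differences between libraries include differences in genotype. Mice of the same age and strain given rapamycin at 14 ppm or kept on 40% calorie restriction for 8 months, 6 libraries each, and 6-month-old mice after 2 months of acarbose at 1000 ppm with their controls, again 12 libraries, served for comparison.

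Acarbose blocks the intestinal enzymes that split starch and sucrose into glucose, which slows the entry of sugar from the gut; little of the drug itself reaches the blood. The liver receives sugar, amino acids and bile acids from the gut by the portal vein and adjusts the enzymes that use them. It also clears foreign and reactive compounds, partly through glutathione transferases, which couple glutathione to electrophiles, and partly through cytochrome P450 enzymes, which oxidise drugs and steroids.

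The 12 libraries held between 17613843 and 22220278 gene-assigned read pairs, both extremes being acarbose females. Levels of single genes are given as CPM, counts scaled to library size with trimmed-mean (TMM) factors. Sums and averages of cell type and tissue markers are CPM of the library total, without these factors. The labelled tissue matched its markers: 10 of 10 hepatocyte markers were detected, with summed levels of 121831 to 171290 CPM in acarbose livers and 94249 to 149591 CPM in control livers. Markers of skeletal muscle, kidney and adrenal gland summed to 56 counts or fewer in each of the 12 libraries. Of 14 pancreas markers 1 to 6 were detected per library (282 to 1838 counts), and of 10 intestinal epithelium markers 4 to 6 (2542 to 8853 counts). All 10 adipocyte markers were detected in acarbose male 3 and 8 in control female 1, against 3 to 5 in the other libraries, and their sums were 1261 to 3959 CPM in acarbose livers and 794 to 5456 CPM in control livers. Components of variance were taken over all 24 libraries of the 12-month set, rapamycin and calorie restriction included. Along the largest, which held 31.9% of the variance, the 12 libraries separated by sex and not by diet.

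Of 13639 genes tested, 8 passed the test for acarbose at 12 months with the sexes weighted equally, which is 0.0587% of the genes (edgeR quasi-likelihood test, adjusted p under 0.05). The 6 higher genes (0.0440%) were Gsta2, Gsta4, Slc51b, Acmsd, Idh2 and Hexa, and the 2 lower genes (0.0147%) were Gna14 and Mycn. At an unadjusted p under 0.05, 584 genes were higher (4.28%) and 628 were lower (4.60%). The number of genes past the adjusted threshold was 0 when control female 1 was left out and 22 when acarbose female 2 was left out, although each of the 8 genes kept its direction in every refit. It was 0 as well when the 12 libraries were fitted alone with sex as an additive term, 1 without the 2 controls of highest lymphocyte markers, and 98 by DESeq2, all 8 genes included.

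Gsta2, an alpha-class glutathione transferase (9:78331018-78355788, minus strand, GRCm38), had 161, 105 and 188 CPM in acarbose males, against 20.7, 33.4 and 5.22 CPM in control males. In females it had 44.1, 48.9 and 78.4 CPM under acarbose, against 6.50, 31.2 and 16.2 CPM in controls. Acarbose and control livers did not overlap within either sex. Gsta2 was 4.94-fold higher under acarbose, a log2 fold change of 2.31 ± 0.37 (SE; adjusted p = 0.0240, 3 mice of each sex and diet).

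Gsta4, the alpha-class enzyme that clears the lipid peroxidation product 4-hydroxynonenal, lies on the same chromosome (9:78182774-78209349, plus strand). It had 220, 128 and 216 CPM in acarbose males, against 93.1, 73.5 and 64.6 CPM in control males. It had 118, 131 and 159 CPM in acarbose females, against 83.9, 129 and 70.2 CPM in control females. The males did not overlap, whereas control female 2 lay within the range of the acarbose females. The log2 fold change of Gsta4 was 0.91 ± 0.17 (adjusted p = 0.0472).

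Slc51b, the beta subunit of the basolateral bile acid exporter, was sparsely counted (9:65412714-65422955, minus strand). It had 19, 26 and 24 counts in acarbose males, against 1, 4 and 6 counts in control males. It had 47, 37 and 60 counts in acarbose females, against 18, 30 and 17 counts in control females. Both sexes were without overlap, and the log2 fold change was 1.93 ± 0.29 (adjusted p = 0.0195). Slc51b passed the test in 11 of the 12 refits that left out a library, the most of the 8 genes.

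Acmsd decarboxylates an intermediate of tryptophan breakdown and so draws it away from NAD synthesis (1:127729413-127767978, plus strand). It had 17.8, 45.2 and 49.6 CPM in acarbose males, against 14.8, 16.2 and 14.6 CPM in control males. It had 18.2, 26.1 and 23.7 CPM in acarbose females, against 8.03, 7.46 and 13.3 CPM in control females. Every acarbose liver was above every control liver of its sex, although acarbose male 1 was close to the controls; the log2 fold change was 1.27 ± 0.23 (adjusted p = 0.0388).

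Idh2, the mitochondrial isocitrate dehydrogenase that yields NADPH (7:80094846-80115392, minus strand), had 190, 129 and 154 CPM in acarbose males, against 74.2, 69.0 and 77.7 CPM in control males. It had 212, 157 and 178 CPM in acarbose females, against 106, 182 and 104 CPM in control females. The male groups were well apart, and control female 2 lay among the acarbose females. The log2 fold change of Idh2 was 0.79 ± 0.14 (adjusted p = 0.0388).

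Hexa, the alpha subunit of lysosomal beta-hexosaminidase (9:59539540-59565109, plus strand), varied little within the acarbose groups. It had 49.3, 48.7 and 49.3 CPM in acarbose males, against 30.8, 25 and 28.6 CPM in control males. It had 49.3, 44.4 and 53.7 CPM in acarbose females, against 32.1, 34.5 and 22.1 CPM in control females. No control liver reached an acarbose liver, and the log2 fold change was 0.77 ± 0.13 (adjusted p = 0.0240).

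Gna14, a G protein alpha subunit of the Gq class (19:16435762-16610820, plus strand), had 14.2, 12.9 and 9.46 CPM in acarbose males, against 24.1, 27.2 and 12.5 CPM in control males. It had 2.99, 3.00 and 1.73 CPM in acarbose females, against 11.2, 9.08 and 8.82 CPM in control females. The females did not overlap, while control male 3 lay within the range of the acarbose males. The log2 fold change of Gna14 was -1.36 ± 0.23 (adjusted p = 0.0240).

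Mycn, a transcription factor of the Myc family (12:12936093-12941914, minus strand), had 3, 2 and 3 counts in acarbose males, against 49, 57 and 42 counts in control males. It had 2, 0 and 8 counts in acarbose females, against 15, 4 and 6 counts in control females. The male groups lay far apart and the female groups overlapped. The log2 fold change of Mycn was -2.66 ± 0.50 (adjusted p = 0.0472). Of the 12 refits that left out a library, Mycn, Gsta4 and Idh2 passed the test in 3, Acmsd in 4, Gsta2 and Gna14 in 6 and Hexa in 7.

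**Figure D1:**
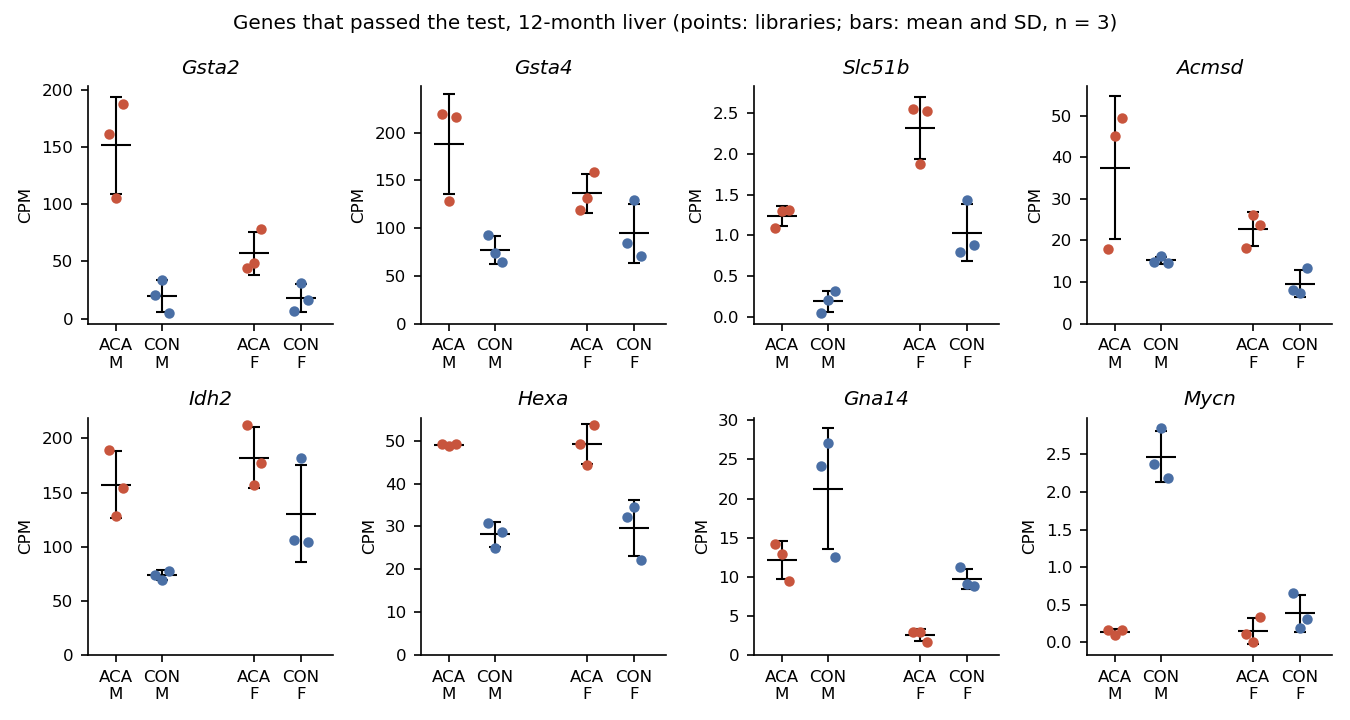
CPM of the 8 genes that passed the test in each liver of the 12-month set, with acarbose (ACA, red) beside control (CON, blue) for males (M) and then females (F). Points are libraries and bars are the mean and SD of 3 mice; Gsta2 lies between 105 and 188 CPM in acarbose males, above all 3 control males at 5.22 to 33.4 CPM.

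Gsta2 and Gsta4 belong to a list of 22 glutathione transferases, of which 19 could be tested. Both called members were higher, and 17 of the 19 had positive log2 fold changes. At an unadjusted p under 0.05, 10 were higher and none was lower (all genes 4.28% and 4.60%). The median was 0.37, beside -0.00 over all genes tested. Gsta1, a close copy of Gsta2, had 46.3, 19.8 and 51.5 CPM in acarbose males, against 2.75, 7.84 and 2.82 CPM in control males. It had 5.00, 6.50 and 21.5 CPM in acarbose females, against 0.263, 3.97 and 0.516 CPM in control females. The groups of neither sex overlapped, but Gsta1 missed the threshold at a log2 fold change of 2.97 ± 0.57 (adjusted p = 0.0668). Reads of such near-identical genes can be split between them in counting, so the values of Gsta1 and Gsta2 are less certain than those of single-copy genes.

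Members of other classes had smaller values. The theta-class enzymes Gstt2 and Gstt3 had log2 fold changes of 0.85 ± 0.22 and 0.76 ± 0.19, the mu-class enzyme Gstm2 of 0.80 ± 0.22, the omega-class enzyme Gsto1 of 0.50 ± 0.14 and the abundant alpha-class enzyme Gsta3 of 0.53 ± 0.15, none of which passed the adjusted test. Gsta1, Gsta2, Gstm2 and Gsto1 were higher without overlap in either sex, against 0.440% of all genes. Gstm1, Gstm4, Gstm6 and the microsomal enzyme Mgst1 had values between -0.06 and 0.15. The list median was 0.60 in males, with 12 members higher at an unadjusted p under 0.05 (all genes 4.63%), and 0.18 in females, with 3 (all genes 2.57%).

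Glutathione transferase genes are textbook targets of NRF2, the transcription factor released under oxidative or electrophilic stress. Of 25 tested NRF2 targets outside that family, none passed the adjusted test, and the median was 0.11. There were 7 higher and 2 lower at an unadjusted p under 0.05 (all genes 4.28% and 4.60%). Cbr1, a carbonyl reductase, had a log2 fold change of 0.68 ± 0.15 (adjusted p = 0.0966), and Nqo1, a quinone reductase, of 0.53 ± 0.13 (adjusted p = 0.164); both were without overlap in each sex. The core of the NRF2 binding element, TGACNNNGC on either strand, was present in the 250 bases before the RefSeq start of 4 of 17 glutathione transferase genes in the promoter table (23.5%), against 13.8% of the 10311 tested genes in it. Gsta3, Gstm5, Gstm7 and Mgst1 were those with a match.

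Among 39 tested cytochrome P450 genes of drug metabolism, none passed the adjusted test, and the median was 0.29. Of these genes, 10 were higher and none lower at an unadjusted p under 0.05 (all genes 4.28% and 4.60%). Cyp3a11, the main mouse counterpart of human CYP3A4, had 4923, 4096 and 5306 CPM in acarbose males, against 2608, 2294 and 1645 CPM in control males. It had 1210, 1777 and 1852 CPM in acarbose females, against 175, 473 and 303 CPM in control females. Both sexes were fully separated, at a log2 fold change of 1.74 ± 0.33 (adjusted p = 0.0607). Abcb1a, a drug efflux pump, had a log2 fold change of 1.30 ± 0.27 (adjusted p = 0.0680).

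Nearly all interferon response genes had lower levels under acarbose, although none of them passed the adjusted test in the mean of the sexes. Of 61 listed genes 58 could be tested, and 57 of the 58 had negative log2 fold changes, with 34 lower at an unadjusted p under 0.05, against 4.60% of all genes. The list median was -0.57, and it lay between -0.67 and -0.49 with any of the 12 livers left out, with 30 to 37 genes lower. In 12 members, acarbose and control livers did not overlap within either sex and acarbose was lower, against 0.484% of all genes; they were Irf9, Ifi44, Oas2, Dhx58, Rtp4, Oas1a, Parp9, Isg15, Irf7, Xaf1, Ifit1 and Ifi27l2a. In bulk liver RNA, fewer cells of a type and less RNA per cell cannot be told apart.

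Interferons act through a receptor that activates a transcription factor complex holding IRF9, and this complex binds a promoter element made of repeated GAAA. The core, GAAA and again GAAA after any 2 bases, was found on either strand in the 250 bases before the RefSeq start of 22 of the 40 interferon list members in the promoter table (55%), against 3.35% of the 10311 tested genes in it. A gene with any match was counted once, and overlapping matches appear below as a single run of capitals. The stretches of Isg15, Ifit1 and Oas1a are shown because these were the members with a match that were also lower without overlap in both sexes. Their GRCm38 positions are chr4:156200850-156200909 (minus strand), chr19:34640779-34640838 (plus strand) and chr5:120907526-120907564 (minus strand). Capitals mark the matched letters, which in Ifit1 read as the reverse complement.
Isg15: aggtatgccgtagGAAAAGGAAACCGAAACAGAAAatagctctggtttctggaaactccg
Ifit1: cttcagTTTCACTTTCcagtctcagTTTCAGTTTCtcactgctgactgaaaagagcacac
Oas1a: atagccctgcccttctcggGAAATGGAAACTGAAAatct
The 22 members with a match had a median log2 fold change of -0.71, the 18 without one of -0.48 and the 18 outside the table of -0.55; the difference between these groups was not tested.

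Irf9, the DNA-binding subunit of that complex, had 17.8, 25.9 and 25.3 CPM in acarbose males, against 36.4, 34.0 and 34.9 CPM in control males. It had 28.6, 18.5 and 20.8 CPM in acarbose females, against 34.6, 36.0 and 33.2 CPM in control females. The 6 control livers lay close together and all acarbose livers were below them (log2 fold change -0.61 ± 0.13, adjusted p = 0.0680).

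Isg15, a ubiquitin-like modifier, had 7.97, 7.82 and 10.5 CPM in acarbose males, against 13.3, 22.4 and 14.6 CPM in control males. It had 7.01, 6.25 and 5.44 CPM in acarbose females, against 10.1, 11.2 and 8.62 CPM in control females. The groups were separate in each sex, at a log2 fold change of -0.81 ± 0.23 (adjusted p = 0.279). Ifit1, which binds viral RNA, had 3.15, 8.12 and 6.24 CPM in acarbose males, against 12.2, 15.3 and 10.7 CPM in control males. It had 4.29, 6.04 and 4.38 CPM in acarbose females, against 8.83, 8.08 and 7.89 CPM in control females. All acarbose livers were again below the controls of their sex (log2 fold change -0.94 ± 0.28, adjusted p = 0.297).

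Ifi44 had 0.459, 1.5 and 0.985 CPM in acarbose males, against 3.81, 4.89 and 3.13 CPM in control males. It had 2.34, 0.864 and 2.32 CPM in acarbose females, against 7.20, 3.82 and 2.37 CPM in control females. The male groups were far apart and the female groups nearly touched (log2 fold change -1.63 ± 0.34, adjusted p = 0.0680). Oas2, an oligoadenylate synthetase, had a log2 fold change of -1.75 ± 0.40 (adjusted p = 0.122), the RNA sensor Dhx58 of -0.78 ± 0.18 (adjusted p = 0.128) and Rtp4 of -0.71 ± 0.17 (adjusted p = 0.135).

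Summarised per liver as the median of the 58 genes' log2 deviations from the mean of the controls of the same sex, the values were -1.0, -0.42 and -0.37 in acarbose males, against 0.03, 0.09 and -0.08 in control males. They were -0.48, -0.84 and -0.63 in acarbose females, against 0.16, 0.02 and -0.21 in control females. Each acarbose liver was below each control liver. The number of the 58 genes below the control mean was 55, 45 and 36 in acarbose males and 49, 56 and 55 in acarbose females, while it was 26, 25 and 36 in control males and 16, 26 and 42 in control females. Acarbose male 3 therefore had as many genes below the mean as control male 3.

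**Figure D2:**
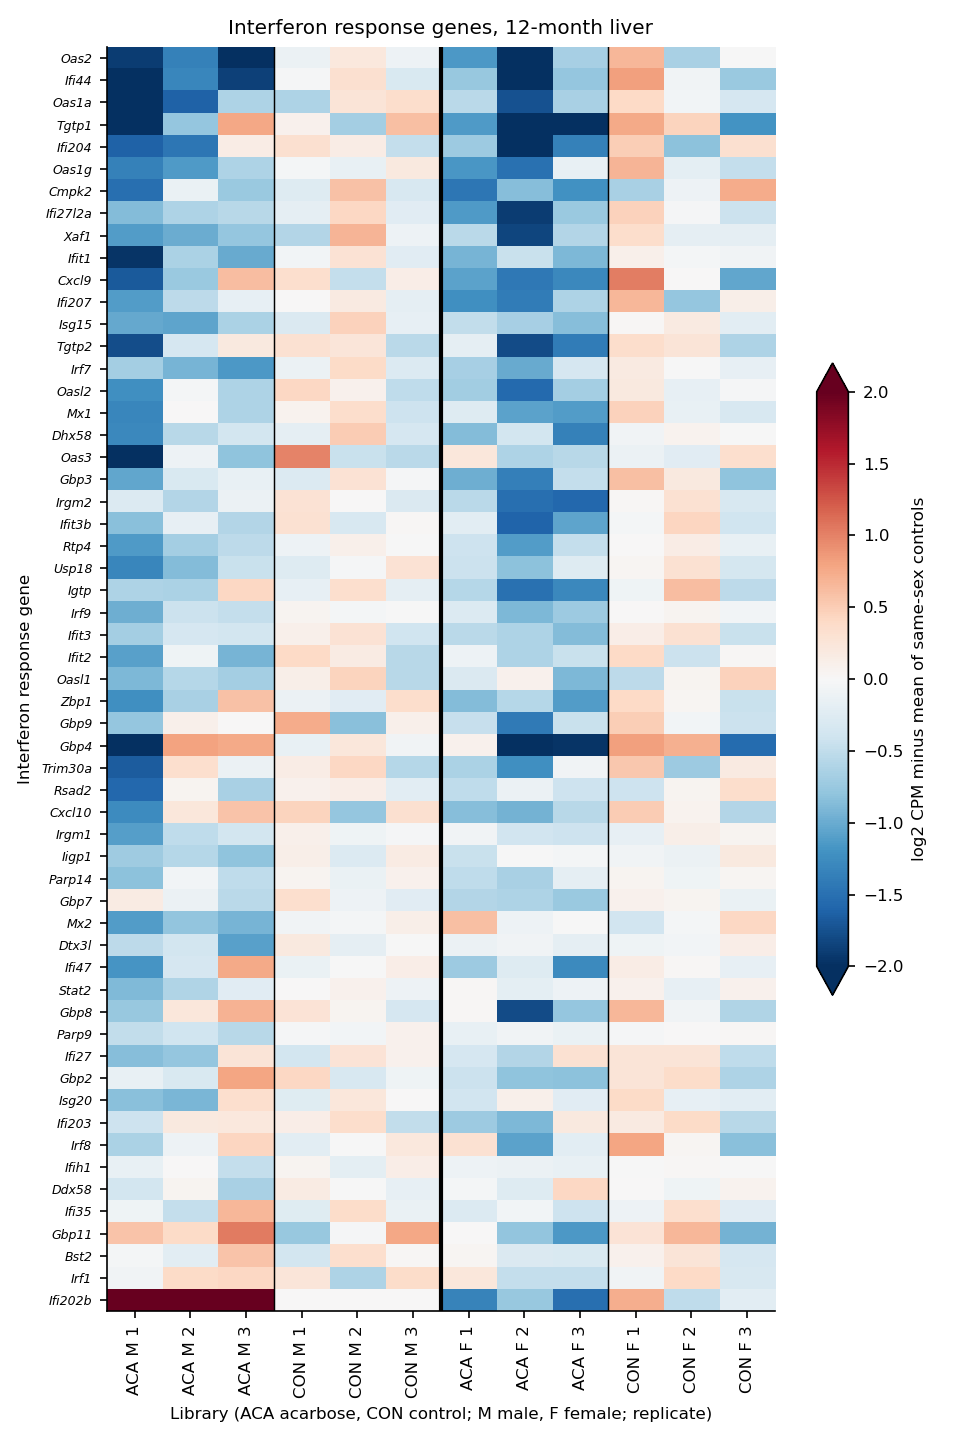
Heat map of 57 of the 58 interferon response genes (down the page) in the 12 livers (across), coloured by log2 CPM minus the mean of the controls of the same sex, blue below and red above. The acarbose columns are mostly blue, with medians over the 58 genes from -1.0 to -0.37, beside control columns with medians from -0.21 to 0.16.

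Lymphocyte markers had negative median log2 fold changes in females and positive ones in males, and none passed the adjusted test. Acarbose male 3 had the highest lymphocyte sums of the acarbose males. The interferon median was -0.50 in males and -0.71 in females. Within each group except control males, T and NK sums and the interferon medians above ranked the livers alike. A link between them was not tested. T and NK cell markers summed to 4.04, 8.08 and 13.4 CPM in acarbose males, against 8.40, 6.28 and 6.28 CPM in control males. In females they summed to 6.36, 3.41 and 4.91 CPM under acarbose, against 25.4, 8.91 and 8.00 CPM in controls. The males overlapped and the females did not; the median log2 fold change of the 11 tested markers was 0.56 in males and -1.32 in females. The 12 tested B and plasma cell markers had medians of 0.36 in males and -1.37 in females, although their sums overlapped in males, at 18.1, 37.7 and 137 CPM under acarbose, against 45.1, 275 and 95.0 CPM in controls. In females the sums were 56.0, 23.6 and 37.0 CPM under acarbose, against 248, 50.01 and 48.2 CPM in controls, and overlapped as well. All 15 T and NK and all 13 matched B and plasma cell markers were detected in both diets.

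In the mean of the sexes the T and NK median was -0.38, with 2 markers lower at an unadjusted p under 0.05 (all genes 4.60%), and the B and plasma cell median was -0.47, also with 2. Control female 1 carried much of this: without it the medians were -0.11, with 0 T and NK markers lower, and -0.14, with 1 B and plasma cell marker lower. Without acarbose male 3 the medians moved the other way. They were -0.96, with 5 T and NK markers lower, and -0.72, with 3 B and plasma cell markers lower. Averaged over all 6 livers of each diet, CPM was lower under acarbose for 14 of 15 T and NK, 10 of 13 B and plasma cell, 12 of 15 Kupffer cell and macrophage, 13 of 16 stellate cell, 9 of 12 monocyte and neutrophil and 7 of 8 erythroid markers. It was lower for 2 of 10 cholangiocyte, 7 of 14 sinusoidal endothelial and 6 of 10 hepatocyte markers. The share of all genes lower by this measure was not computed. It leaves out the TMM factors, which were 0.952 to 1.07 in acarbose and 1.02 to 1.15 in control livers. By the fit, mean-of-sexes medians were -0.01 for Kupffer cell and macrophage, -0.15 for stellate cell, -0.38 for monocyte and neutrophil and -0.30 for erythroid markers. Of these markers 1, 1, 1 and 0 were lower at an unadjusted p under 0.05 (all genes 4.60%). Kupffer cell and macrophage markers had a median log2 fold change of 0.32 in males and -0.32 in females, and stellate cell markers of 0.15 in males and -0.56 in females. Without control female 1 and control male 2, which had the highest lymphocyte sums of their sex, the interferon median was -0.53, 55 of 58 values were negative and 27 were lower at an unadjusted p under 0.05. The part of these markers in the remainder was not tested.

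Ifi202b was the exception within the list. It had 8, 38 and 14 counts in acarbose males, against 0, 0 and 0 counts in control males. It had 15, 25 and 17 counts in acarbose females, against 85, 32 and 37 counts in control females. It was present in every acarbose male and undetected in every control male, and in females the order was the reverse. Rapamycin males had 22, 16 and 19 counts and calorie-restricted males 19, 16 and 29, so the control males stood apart from all other 12-month males. Ifi202b was the only gene whose acarbose minus control difference passed the test between the sexes (1 of 13639, 0.00733%; male minus female log2 difference 8.67 ± 1.28, adjusted p = 0.0237). The fitted size depends on the zeros in control males and is no estimate of a fold. The labels give no genotype at this locus, so a difference in alleles between these mice and a difference with acarbose cannot be told apart for this gene.

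Genes of amino acid use had mostly positive values. Among 49 genes of the urea cycle and amino acid breakdown, none passed the adjusted test, 43 had positive log2 fold changes and the median was 0.22. Past an unadjusted p of 0.05, 16 were higher and none lower (all genes 4.28% and 4.60%). Ivd, Oat, Ass1, Aass and Otc were higher without overlap in both sexes, against 0.440% of all genes. Ass1, the argininosuccinate synthase of the urea cycle, had a log2 fold change of 0.60 ± 0.14 (adjusted p = 0.135). Asl, which follows it in the cycle, had 0.63 ± 0.16 (adjusted p = 0.176), and Ivd, which acts in leucine breakdown, had 0.54 ± 0.11 (adjusted p = 0.0680).

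Oat, the ornithine aminotransferase, had 1805, 1256 and 1174 CPM in acarbose males, against 822, 441 and 766 CPM in control males. It had 1755, 1145 and 1432 CPM in acarbose females, against 465, 982 and 643 CPM in control females. The diets were apart in both sexes, with a log2 fold change of 1.06 ± 0.24 (adjusted p = 0.123). Of 23 tested genes of methionine and one-carbon metabolism, 9 were higher and none lower at an unadjusted p under 0.05 (all genes 4.28% and 4.60%). Their median was 0.19. Cth, which makes cysteine from cystathionine, had a log2 fold change of 0.81 ± 0.16 (adjusted p = 0.0607). Of 22 genes of the citric acid cycle and NADPH shuttle, 9 were higher at an unadjusted p under 0.05 (all genes 4.28%), Idh2 among them. The number was 4 without control female 1, and the list median with all livers was 0.17.

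The lists of sugar use had medians near that of all genes. None of 21 genes of gluconeogenesis and glycogen was past an unadjusted p of 0.05 in either direction, with a median of 0.04. Of 27 genes of glycolysis and the carbohydrate response, 1 was higher and 3 were lower (all genes 4.28% and 4.60%), with a median of -0.02. Lipogenesis genes had a median of -0.29, with 7 of 25 lower and none higher at an unadjusted p under 0.05 (all genes 4.60% and 4.28%). Fasn, the fatty acid synthase, had a log2 fold change of -0.79 ± 0.35 (adjusted p = 0.525), and control male 2 was its highest liver at 1678 CPM. Without control male 2 the list median was -0.16, with 1 gene lower.

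In males, 3 genes passed the adjusted test (0.0220% of 13639), Ifi202b, Slc51b and Mycn, and 34 by DESeq2, these 3 included. None passed in males without acarbose male 2 or without any 1 of the 3 control males, and 1 passed without acarbose male 1. In females 0 genes passed it by edgeR, with 802 at an unadjusted p under 0.05, and 9 by DESeq2. Beyond Ifi202b the sexes were not shown to differ for any gene, and the following list values are given side by side. Respiratory chain genes encoded in the nucleus had a median of 0.50 in males, with 70 of 70 positive. In males 37 were higher at an unadjusted p under 0.05 (all genes 4.63%). The median was 0.08 in females, with 56 of 70 positive and none past that p in either direction. For the male minus female difference, 0 of the 70 genes reached an unadjusted p under 0.05, which 2.70% of all genes did as higher in males and 2.60% as lower. The per-liver medians of this list were 0.59, 0.08 and 0.78 in acarbose males, against -0.20, 0.20 and -0.02 in control males, so acarbose male 2 lay among the controls. In the mean of the sexes 16 of the 70 genes were higher at an unadjusted p under 0.05 (all genes 4.28%), but 7 without control female 1 and 44 without control female 2.

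Cytosolic ribosomal protein genes had a median of 0.40 in males and of -0.03 in females. Acute phase genes had a median of -0.50 in males and of -0.02 in females, and of -0.24 in the mean of the sexes, or -0.01 without control male 3. Saa1, a serum amyloid, had 42.8, 26.0 and 101 CPM in acarbose males, against 32.4, 16.8 and 1788 CPM in control males. Control male 3 was by far the highest liver for Saa1.

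**Figure D3:**
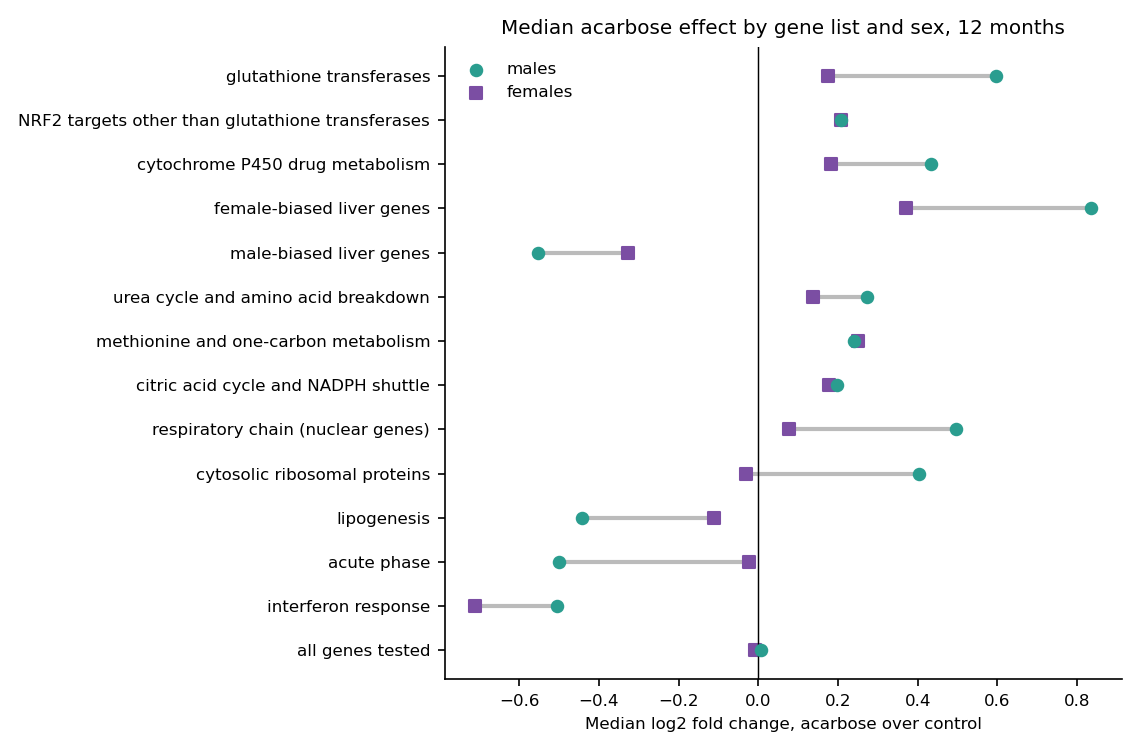
Median log2 fold change of acarbose over control at 12 months for 13 gene lists and for all genes tested (down the page), with males as circles and females as squares joined by a line. Interferon response genes lie at -0.50 in males and -0.71 in females, while respiratory chain genes lie at 0.50 in males and 0.08 in females.

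Genes with known sex bias in mouse liver are set by the male or female pattern of growth hormone release. Of 31 female-biased genes, 11 were higher and none lower at an unadjusted p under 0.05 (all genes 4.28% and 4.60%), with a median of 0.52. That median was 0.84 in males and 0.37 in females, and 0.29 in the mean of the sexes without acarbose male 3. Of 31 tested male-biased genes, 7 were lower and none higher (all genes 4.60% and 4.28%), with a median of -0.44. Without acarbose male 1, 7 female-biased genes were higher and 4 male-biased genes lower at that p. No member of either list passed the adjusted test.

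Mup3, a major urinary protein carried in a large family of near-identical genes, had 4118, 3241 and 3852 CPM in acarbose males, against 7813, 6811 and 6841 CPM in control males. It had 267, 358 and 398 CPM in acarbose females, against 562, 1631 and 818 CPM in control females. No acarbose liver reached a control of its sex (log2 fold change -1.25 ± 0.31, adjusted p = 0.164). Cyp39a1, a sterol hydroxylase that is female-biased, had 11.5, 17.9 and 2.57 CPM in acarbose males, against 0.290, 0.799 and 0.0522 CPM in control males. It had 43.1, 18.6 and 31.9 CPM in acarbose females, against 17.9, 16.4 and 23.6 CPM in control females. Only the males were without overlap, and acarbose male 3 was well below the other acarbose males (log2 fold change of the mean of sexes 2.74 ± 0.52, adjusted p = 0.0624).

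Rapamycin at 14 ppm differed from acarbose at 1000 ppm in 19 of 13639 genes (0.139%), 13 higher (0.0953%) and 6 lower (0.0440%) under acarbose. The count was 6 without rapamycin female 1, 49 without acarbose female 2 and 120 by DESeq2. This contrast uses no control liver. Gsta2 was higher under acarbose, with 161, 105 and 188 CPM in acarbose males, against 29.6, 18.7 and 15.1 CPM in rapamycin males. In females it had 44.1, 48.9 and 78.4 CPM under acarbose, against 12.6, 15.3 and 10.6 CPM under rapamycin. No rapamycin liver reached an acarbose liver of its sex (log2 difference 2.5 ± 0.38, adjusted p = 0.00642). Slc51b (2.36 ± 0.31, adjusted p = 0.00162), Gsta1 (3.48 ± 0.59, adjusted p = 0.0197), Abcb1a (1.78 ± 0.27, adjusted p = 0.00632), Idh2 and Oat were also higher under acarbose.

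Cyp2b10, the classical target of the receptor CAR, had 36.6, 42.3 and 97.8 CPM in acarbose males, against 8.32, 5.84 and 4.85 CPM in rapamycin males. It had 108, 89.0 and 62.8 CPM in acarbose females, against 54.6, 55.2 and 82.9 CPM in rapamycin females. The males were fully apart and the females overlapped (log2 difference 1.82 ± 0.24, adjusted p = 0.00162). Against the shared controls Cyp2b10 stood at 0.79 under acarbose and at -1.03 under rapamycin, and neither passed the adjusted test.

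Slco1a1, a male-biased organic anion transporter, had 166, 300 and 138 CPM in acarbose males, against 602, 453 and 495 CPM in rapamycin males. It had 0.924, 1.52 and 1.48 CPM in acarbose females, against 120, 26.1 and 10.1 CPM in rapamycin females. The females differed by the larger factor, and Slco1a1 was lower under acarbose than under rapamycin by a log2 difference of -3.33 ± 0.45 (adjusted p = 0.00280). Against the shared controls Slco1a1 stood at -0.998 under acarbose and at 2.33 under rapamycin, and neither passed the adjusted test. Mup3 was lower under acarbose as well, by -1.76 ± 0.31 (adjusted p = 0.0197), as was the clotting factor F11, by -0.85 ± 0.15 (adjusted p = 0.0197). Over the 31 male-biased genes the acarbose minus rapamycin median was -1.31, with 30 negative values. Of the 31, 17 were lower at an unadjusted p under 0.05 (all genes 3.42%) and 2 passed the adjusted test (all genes 0.0440%). The acarbose minus control median of this list was -0.44. One rapamycin male held skeletal muscle markers at 32117 counts, and without it and the calorie-restricted female below, 10 genes passed.

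Calorie restriction at 40% differed from acarbose in 1161 of 13639 genes (8.51%), 610 higher (4.47%) and 551 lower (4.04%) under acarbose. Of 22 heat shock genes, 13 were lower under acarbose and none higher, with a median log2 difference of -0.71. Hsp90aa1, a cytosolic chaperone, was lower by -1.82 ± 0.28 (adjusted p = 0.000541) and the small heat shock protein Hspb1 by -2.55 ± 0.45 (adjusted p = 0.00202). Of 25 autophagy genes, 9 were higher under acarbose and none lower, among them Gabarapl1 (1.38 ± 0.16, adjusted p = 2.89e-05), Wipi1 and the kinase Ulk1. Set against the shared controls, the log2 fold changes of these 5 genes were larger in size under calorie restriction. Hsp90aa1 stood at 0.18 under acarbose and 2.00 under calorie restriction, and Hspb1 at 0.03 under acarbose and 2.57 under calorie restriction. Gabarapl1 stood at 0.33 under acarbose and -1.05 under calorie restriction, while Wipi1 (-0.32 and -1.33) and Ulk1 (-0.59 and -1.55) were below the controls under both, in the same order. The clock genes Nr1d1 and Cry1 differed by 5.09 ± 0.49 (adjusted p = 1.90e-05) and -2.55 ± 0.20 (adjusted p = 3.89e-07). The hour of death was not given in the labels used here. One calorie-restricted female held adrenal markers at 4845 counts, and 764 genes passed without it and the rapamycin male above.

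Set against calorie restriction directly, interferon genes were near 0. The acarbose minus calorie restriction median was 0.04 over 58 genes, with 5 higher and 5 lower at an unadjusted p under 0.05 (all genes 11.9% and 10.8%), and Iigp1 was the gene that passed the adjusted test (0.67 ± 0.13 higher under acarbose, adjusted p = 0.00324). Against the same controls as above, which these values therefore share, the per-liver medians were -0.23, -0.89 and -0.20 in calorie-restricted males and -0.92, -0.56 and -0.46 in calorie-restricted females. They were -0.58, -0.78 and -0.60 in rapamycin males and -0.10, -0.30 and 0.15 in rapamycin females. The acarbose minus rapamycin median was -0.18, with 7 genes lower and none higher at an unadjusted p under 0.05 (all genes 3.42% and 4.08%) and none past the adjusted test.

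At 6 months, after 2 months of acarbose, 913 of 14816 genes passed the test (6.16%), 471 higher (3.18%) and 442 lower (2.98%); the controls were other mice. Of the 8 genes called at 12 months, Gsta2, Gsta4 and Slc51b also passed at 6 months, in the same direction, which is 37.5% of the 8 and 0.329% of the 913. Their log2 fold changes at 12 months were 2.31 ± 0.37, 0.91 ± 0.17 and 1.93 ± 0.29 (adjusted p = 0.0240, 0.0472 and 0.0195), and at 6 months 1.71 ± 0.26, 1.01 ± 0.20 and 3.40 ± 0.50 (adjusted p = 0.000322, 0.00412 and 0.000222). Gsta1 stood at 2.97 ± 0.57 at 12 months (adjusted p = 0.0668) and at 3.90 ± 0.55 at 6 months (adjusted p = 0.000172). Abcb1a stood at 1.30 ± 0.27 at 12 months (adjusted p = 0.0680) and at 1.30 ± 0.23 at 6 months (adjusted p = 0.00127). Idh2 stood at 0.79 ± 0.14 at 12 months and at -0.07 ± 0.14 at 6 months, a difference that passed its own test (0.85 ± 0.20, adjusted p = 0.0255).

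Of the 458 genes called higher at 6 months and tested at 12 months, 290 had positive values at 12 months. At an unadjusted p under 0.05, 47 of them (10.3%) were higher and 13 were lower (all genes 4.28% and 4.60%). Of the 435 called lower, 232 had negative values. At that p, 25 of the 435 (5.75%) were lower and 31 were higher (all genes 4.60% and 4.28%). Across 13480 genes the log2 fold changes at 12 and 6 months had a Pearson correlation of 0.049 and a Spearman correlation of 0.098, as a description across genes that are not independent.

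The effect of acarbose differed between 12 and 6 months in 160 of 15159 genes (1.06%), 86 with the higher signed value at 12 months (0.567%) and 74 with the lower (0.488%). Of these 160, 148 had opposite signs at the ages and 11 had the same sign; 2 were called at 12 months and 113 at 6 months. Choosing genes by this difference favours opposite signs, so the 148 are no separate result. Age and length of treatment changed together and cannot be told apart. The number of such genes was 66 without control female 1 of the 12-month set and 321 without acarbose female 1 of the 6-month set. It was 9 when only the compared libraries were fitted.

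Genes of nitrogen and methyl-group use were among the 86. Of 49 genes of the urea cycle and amino acid breakdown, 9 passed with a higher signed effect at 12 months than at 6 months. None passed with a lower one (all genes 0.567% and 0.488%). The median difference was 0.39, against -0.01 over all genes. Of 24 genes of methionine and one-carbon metabolism, 6 passed as higher and none as lower (same shares of all genes), with a median difference of 0.50. Of 37 genes of fatty acid oxidation, 4 passed as higher and none as lower (same shares), with 37 positive differences and a median of 0.41. At 6 months 13 of the 37 had passed as lower under acarbose (all genes 2.98%).

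Bhmt, which remethylates homocysteine with betaine, had 6448, 5785 and 3865 CPM in acarbose males at 12 months, against 2570, 4046 and 2375 CPM in control males. It had 4373, 3621 and 2083 CPM in acarbose females at 12 months, against 1212, 2675 and 3017 CPM in control females. At 6 months it had 1196, 813 and 548 CPM in acarbose females, against 9659, 6539 and 8838 CPM in control females. In 6-month males it had 2830, 3605 and 1865 CPM under acarbose, against 3256, 3295 and 1977 CPM in controls. At 6 months the females lay far apart, with acarbose lower, and the males overlapped. The log2 fold change of Bhmt was 0.69 ± 0.23 at 12 months and -1.67 ± 0.34 at 6 months (difference 2.35 ± 0.43, adjusted p = 0.00366).

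Oat had 627, 380 and 384 CPM in acarbose females at 6 months, against 1531, 1393 and 1296 CPM in control females, the reverse of its order at 12 months. In 6-month males it had 932, 971 and 1094 CPM under acarbose, against 802, 796 and 773 CPM in controls, so the 6-month males and females were in opposite order. The difference of the Oat effect between ages was 1.68 ± 0.30 (adjusted p = 0.00267). Mat1a, the liver enzyme that makes S-adenosylmethionine, differed by 1.31 ± 0.22 (0.36 at 12 months and -0.96 at 6 months, adjusted p = 0.00183), and Asl by 1.5 ± 0.34 (adjusted p = 0.0173).

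Among 16 enzymes of bile acid synthesis, 3 passed with a higher signed effect at 12 months and 1 with a lower one (all genes 0.567% and 0.488%). Cyp7a1, the rate-limiting enzyme of the classical pathway, had 258, 267 and 101 CPM in acarbose males at 12 months, against 76.0, 33.5 and 64.1 CPM in control males. It had 316, 42.2 and 167 CPM in acarbose females at 12 months, against 34.9, 81.5 and 112 CPM in control females. At 6 months it had 21.1, 1.25 and 0.536 CPM in acarbose females, against 50.4, 99.8 and 109 CPM in control females. In 6-month males it had 69.0, 65.5 and 38.2 CPM under acarbose, against 134, 103 and 75.6 CPM in controls. Acarbose was above control without overlap in 12-month males and below it without overlap in both sexes at 6 months. The effect on Cyp7a1 was 1.52 ± 0.57 at 12 months and -2.17 ± 0.56 at 6 months (difference 3.69 ± 0.81, adjusted p = 0.0136). Cyp8b1, the sterol 12-alpha-hydroxylase, stood at -0.07 at 12 months and at -2.42 at 6 months (difference 2.34 ± 0.57, adjusted p = 0.0284).

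Among the 74 genes with the lower signed effect at 12 months, Ly6a, an interferon-inducible surface protein, stood at -1.09 at 12 months and 2.55 at 6 months (difference -3.65 ± 0.89, adjusted p = 0.0294). The interferon list held 3 such genes of 58 (all genes 0.488%), Oas2, Ifi204 and Ifi207. Its median difference was -0.49, and its median was -0.57 at 12 months and -0.05 at 6 months. Gstm3, a mu-class glutathione transferase, stood at 0.26 at 12 months and 2.90 at 6 months (difference -2.65 ± 0.58, adjusted p = 0.0128). Mycn differed by -3.77 ± 0.71 (adjusted p = 0.00394), with -2.66 at 12 months and 1.10 at 6 months.

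**Figure D4:**
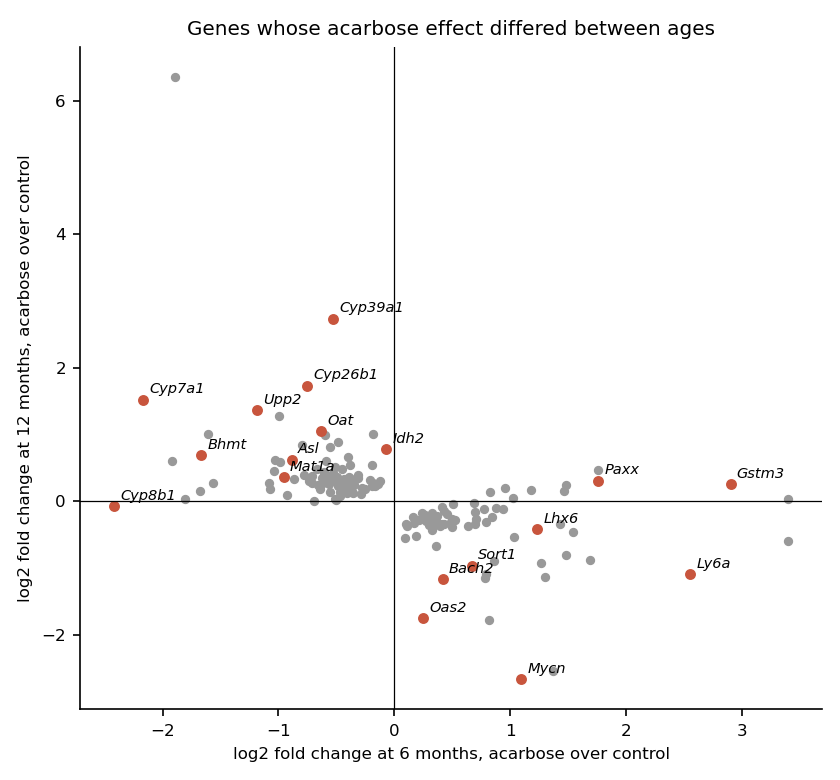
Log2 fold change of acarbose over control at 12 months (vertical axis) against that at 6 months (horizontal axis) for the genes whose effect differed between ages and that were tested at both. Named genes are in red. Most points lie in the upper left and lower right quadrants, where the signs are opposite, which choosing genes by the difference favours. Bhmt lies there with 0.69 at 12 months and -1.67 at 6 months.

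**Figure D5:**
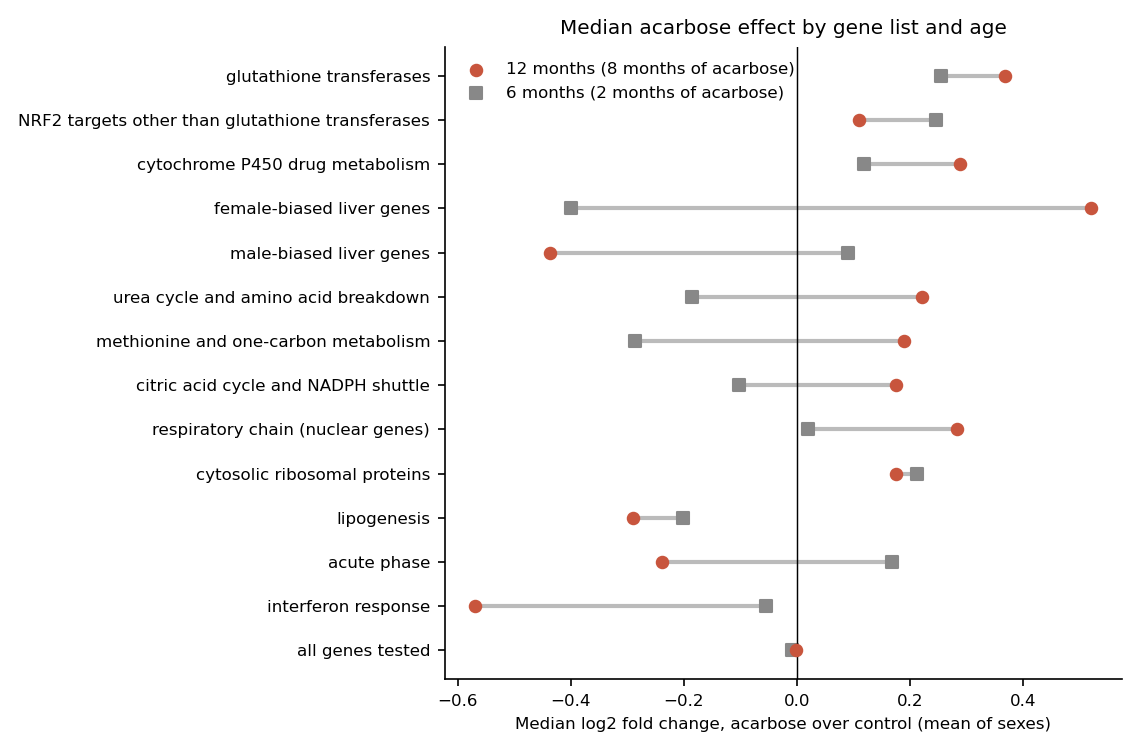
Median log2 fold change of acarbose over control, mean of the sexes, for 13 gene lists and all genes tested (down the page), with 12 months as circles and 6 months as squares joined by a line. Glutathione transferases lie above 0 at both ages, at 0.37 at 12 months and 0.26 at 6 months, while the interferon list lies at -0.57 at 12 months and -0.05 at 6 months.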

How the data were processed

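Per the labels' protocols, liver RNA was extracted with a PureLink kit and libraries were made with TruSeq RNA v2. Per the submitters' processing notes, bcl2fastq 1.8.4, Trimmomatic 0.32, STAR 2.5.2b and featureCounts 1.5 were used with GRCm38; the strand setting of counting was not given in the sources used here, so overlapping and antisense genes are uncertain. The deposited table holds the authors' raw counts per gene for 78 libraries, and it named 43629 genes, 42462 of which matched a symbol.

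Counts were filtered (filterByExpr) and scaled (TMM) in edgeR 4.0.16 under R 4.3.3. The model had 1 coefficient per group over the 24 libraries of the 12-month set, with 16 residual degrees of freedom; the difference between ages was fitted over 60 libraries. A robust quasi-likelihood test was used, p-values were adjusted by Benjamini-Hochberg over all genes tested, and genes under 0.05 were called. The ± values are standard errors. Log2 values per library used a prior count of 2. The procedure was tested on simulated data. DESeq2 1.42.0, other scaling and filters, a replicate block, smaller models and leaving out libraries were tried as alternatives; leaving out libraries for other-tissue or lymphocyte markers was chosen after seeing the data.

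The genes named were all called genes, the genes of smallest p with the same direction in all 6 acarbose livers, the leading members of 56 gene lists, and the genes of largest difference between sexes and ages; Saa1, Fasn and a few others were named after their values were seen. Members and lists were chosen with earlier results of these data known. 1 interferon list member is counted but not reported by name here. Promoters came from RefSeq on GRCm38.p6. The precision is limited by 3 mice per group. Each p-value sets a difference against a spread between mice. That spread was estimated over all libraries of the fit, other treatments included, with information shared across genes.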

Additional observations from a re-analysis of the deposited data

Results flagged for a closer look

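The test of the difference between sexes passed for 1 gene, Ifi202b, with a male minus female log2 difference of 8.67. Its control males were at 0 counts, and 0 genes passed when acarbose female 1 or 3, acarbose male 2, control female 1 or any control male was left out.

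The test of the difference between 12 and 6 months passed for 160 genes. By the rule for naming, the signed log2 effect was higher at 12 months than at 6 months for Cyp7a1 (12 months minus 6 months 3.69), Cyp39a1 (3.27), the uridine phosphorylase Upp2 (2.56), the retinoic acid hydroxylase Cyp26b1 (2.48), Bhmt (2.35) and Cyp8b1 (2.34). It was lower at 12 months for Ly6a (-3.65), Gstm3 (-2.65), the transcription factor Lhx6 (-1.65), the sorting receptor Sort1 (-1.63), the transcriptional repressor Bach2 (-1.58) and the DNA repair factor Paxx (-1.46). These are differences of signed values and not of size: Cyp8b1 stood at -0.07 at 12 months and -2.42 at 6 months, and Sort1 at -0.96 at 12 months and 0.67 at 6 months.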

How the results depend on the processing

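Each of the 8 called genes kept its direction under every alternative. Some list medians changed sign when a library was left out. That of gluconeogenesis and glycogen went from 0.04 to -0.07 without acarbose male 1. The 8 genes called for acarbose became 6 with DESeq2's scaling (RLE) in edgeR, 6 with no filter on low counts and 98 with DESeq2 (57 higher, 41 lower, all 8 shared). They became 1 with only the 12 compared libraries (none shared) and 0 with an additive sex term (1078 at an unadjusted p under 0.05). The count was 1, Gsta2, without the 2 controls of highest lymphocyte markers. It was 9 without the rapamycin male and the calorie-restricted female that held other-tissue markers. That refit kept all 12 acarbose and control livers, acarbose male 3 and control female 1 with their adipocyte markers included. Leaving out libraries gave 0 to 22: the lowest, 0, came without control female 1, and the highest, 22, without acarbose female 2. Dropping acarbose female 3 gave 2, as did dropping acarbose male 1 and control male 2, while control males 1 and 3 gave 3 each, acarbose male 3 gave 4, control female 3 gave 5 and control female 2 gave 14. The cause was not tested.

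In females, 0 genes became 9 with DESeq2, 1 with the compared libraries and 0 to 1 with libraries left out. In males, 3 became 5 with no filter, 34 with DESeq2, 2 with the compared libraries, 1 without the controls of highest lymphocyte markers and 0 to 3 with libraries left out. The 1 gene differing between sexes became 3 with DESeq2 and 0 with the compared libraries, without other-tissue libraries and without the high-lymphocyte controls, and was 0 to 1 with libraries left out.

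The 160 genes differing between ages became 82 with no filter, 325 with DESeq2, 9 with the compared libraries and 66 to 321 with libraries left out; at 12 months, acarbose female 1 gave 94 and acarbose male 1 74, and at 6 months, acarbose female 3 gave 72, acarbose male 1 95 and control male 2 94. Acarbose against rapamycin, 19 genes, became 10 with no filter, 120 with DESeq2, 10 with the compared libraries, 10 without other-tissue libraries and 6 (without rapamycin female 1) to 49 (without acarbose female 2). Acarbose against calorie restriction, 1161 genes, became 609 with the compared libraries, 764 without other-tissue libraries and 743 (without acarbose male 1) to 1541.

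With the replicate number as a block, 5 genes passed for acarbose (4 shared), 0 in males, 0 in females, 0 for the difference between sexes, 17 against rapamycin, 1060 against calorie restriction and 169 between ages. Deviations of same-numbered acarbose and control livers had correlations of 0.129, 0.019 and -0.004 in males and -0.004, -0.119 and -0.118 in females. With so few mice per group, these values cannot decide whether the numbers pair the mice. Slc51b and Mycn rest on few counts, which limits their precision.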
